A study of Rattus norvegicus with 8 samples.

Results

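Transcripts of 8 genes of DNA repair and of the response to DNA damage were followed in CA3 neurons of injured and uninjured rats: Parp1, Ogg1, Ung, Apex1, Xrcc1, Ercc1, Gadd45a and Mdm2. A probe belonged to them when its gene name on the array, without a suffix for predicted or mapped genes, was 1 of these symbols. The genes were chosen with earlier results of these data known. This gave 10 probes of 41012, for 8 of the 18365 gene names on the array. Parp1 and Mdm2 had 2 probes each and the other 6 genes had 1.

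The neurons came from the CA3 subfield of the hippocampus of male Sprague-Dawley rats, 24 hours after moderate fluid percussion, a pressure pulse to the exposed brain surface, after sham injury, or without any treatment (naïve). Pyramidal neurons were cut from frozen sections by laser, and those of injured rats were split by Fluoro-Jade, a stain of degenerating neurons, into dying (stained) and surviving (unstained) pools of about 600 neurons. Surviving neurons were taken beside dying ones, and each injured pool held cells of at least 3 rats. Which rats went into which numbered pool is not stated in the sources. The methods name 1 amplification kit and the labels that kit and another, without saying which pool received which. Each of the 4 groups had 2 arrays, of the Agilent whole-genome type with 1 colour.

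Levels are log2 of the processed signal over the median of the array, so that 0 is the level of the median probe, and levels of different probes are not compared as amounts of RNA. The share of probes well above background ran from 49.2% in sham replicate 2 to 71.6% in surviving replicate 1. Surviving and dying arrays lay on 1 slide and sham and naïve arrays on another. The slides also differed in scan date and in the protocol that turned scans into signals. A difference between injured and sham neurons therefore cannot be told apart from a difference between slides, scans or protocols. Dying replicate 1 stood apart. Its median processed signal was 19.2, against 52.6 in dying replicate 2, and the dying arrays correlated at r = 0.869 over 29683 probes, against 0.933 for naïve, 0.957 for surviving and 0.974 for sham arrays.

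DNA in neurons is damaged mainly by oxidation, which leaves altered bases and single-strand breaks. Glycosylases such as Ogg1 and Ung cut out the damaged base, Apex1 opens the strand at the empty site, and Xrcc1 holds the enzymes that fill and seal the gap, while Parp1 binds breaks and marks them with chains of poly(ADP-ribose). Ercc1 is part of a nuclease of nucleotide excision repair, which removes bulky lesions, and Gadd45a and Mdm2 are targets of the transcription factor p53, Gadd45a as a stress protein and Mdm2 as the ligase that marks p53 itself for destruction.

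The promoters of all 8 genes were found among 33469 RefSeq promoter windows of 300 bases around the annotated start of a gene in the rat build GRCr8. Those of Parp1 and Mdm2 are shown because these genes held the probes that differed most from sham neurons, that of Apex1 for its repeated letters, and that of Gadd45a as the other p53 target. Parp1 lies at chr13:94839234-94839533 on the + strand, Mdm2 at chr7:55200742-55201041 on the - strand, Apex1 at chr15:26617976-26618275 on the + strand and Gadd45a at chr4:97486750-97487049 on the - strand. Capitals mark matches, on either strand, to the GC box GGGCGG and to CCAAT. Each sequence is written 5′ to 3′ on the strand of the gene.
Parp1: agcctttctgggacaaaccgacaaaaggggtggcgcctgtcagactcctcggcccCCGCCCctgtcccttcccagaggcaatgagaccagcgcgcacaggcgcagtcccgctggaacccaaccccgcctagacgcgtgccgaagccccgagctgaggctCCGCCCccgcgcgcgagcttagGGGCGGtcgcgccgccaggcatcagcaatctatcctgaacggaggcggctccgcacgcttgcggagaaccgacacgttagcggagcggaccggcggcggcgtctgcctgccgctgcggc
Mdm2: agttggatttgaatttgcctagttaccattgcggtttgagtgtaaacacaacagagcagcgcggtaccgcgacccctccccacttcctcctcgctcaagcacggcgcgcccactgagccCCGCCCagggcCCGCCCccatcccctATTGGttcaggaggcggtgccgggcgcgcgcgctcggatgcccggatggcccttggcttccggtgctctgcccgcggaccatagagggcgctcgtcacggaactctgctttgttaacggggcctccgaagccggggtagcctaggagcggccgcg
Apex1: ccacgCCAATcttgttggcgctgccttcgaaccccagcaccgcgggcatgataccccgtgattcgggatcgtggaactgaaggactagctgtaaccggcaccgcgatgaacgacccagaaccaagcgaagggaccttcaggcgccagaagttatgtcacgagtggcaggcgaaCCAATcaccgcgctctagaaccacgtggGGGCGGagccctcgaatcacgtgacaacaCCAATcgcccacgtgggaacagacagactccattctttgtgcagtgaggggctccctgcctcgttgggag
Gadd45a: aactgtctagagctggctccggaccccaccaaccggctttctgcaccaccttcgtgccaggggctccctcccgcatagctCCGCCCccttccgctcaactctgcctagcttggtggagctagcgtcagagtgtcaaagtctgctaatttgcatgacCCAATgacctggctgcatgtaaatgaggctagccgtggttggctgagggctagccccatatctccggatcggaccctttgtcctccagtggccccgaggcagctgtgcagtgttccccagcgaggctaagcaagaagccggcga

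The motifs were chosen after the values were seen, and a match is a description of letters. The GC box was present in 7 of the 8 promoters, against 33.1% of all windows, with 3 matches in Parp1, 2 in Mdm2, 4 in Ung and 0 in Xrcc1. CCAAT was present in 5 of 8, against 37.5%. CACGTG, which overlaps neither, was found in Apex1, 3 times, and in Ung, against 6.42% of all windows. TATAAA was found in 0 of 8, against 14.2%, and the p53 half-site in 1 of 8, Gadd45a, against 7.98%. The share of G and C was 70.3% in the Parp1 window and 66% in that of Mdm2, against a median of 51.7% over all windows.

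A signal well above background was seen on every array for 8 of the 10 probes, which covered 7 of the 8 genes. The exceptions were the probe of Ung and the dimmer probe of Mdm2. The groups were compared as surviving with dying neurons, each of these with sham neurons, and sham with naïve neurons.

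**Figure D1:**
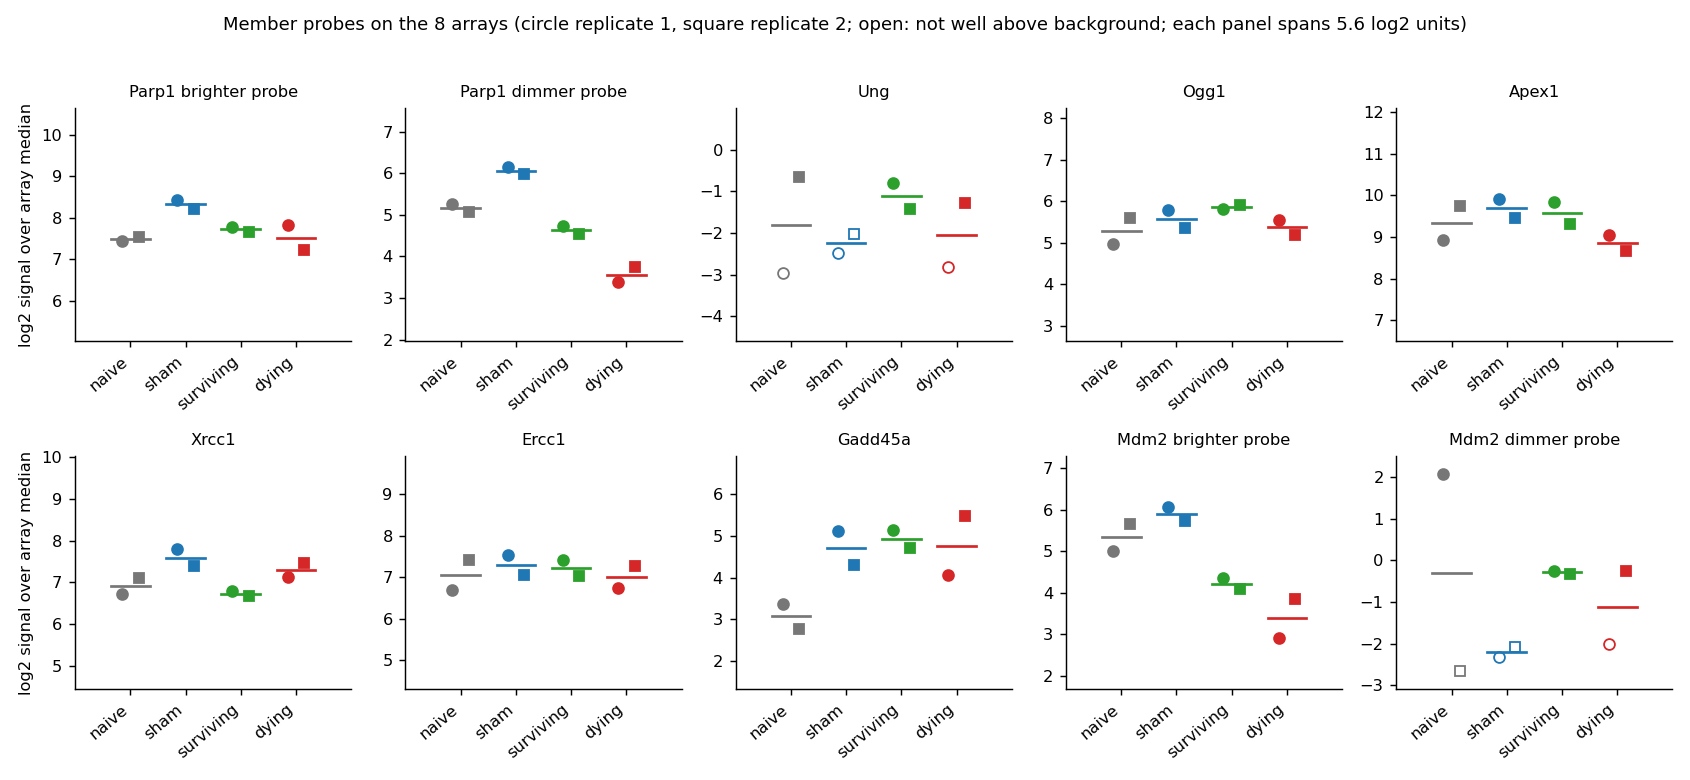
Log2 signal over the array median (vertical axis) of the 10 member probes on the 8 arrays, by group; circles are replicate 1, squares replicate 2, lines group means and open symbols arrays on which the probe was not well above background. The dimmer Parp1 probe and the brighter Mdm2 probe step down from sham (means 6.06 and 5.89) to surviving (4.63 and 4.23) to dying neurons (3.56 and 3.39).

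Parp1, the enzyme that senses DNA breaks, was measured by a brighter probe (A_44_P1033023), printed 10 times on each array, and by a dimmer probe (A_43_P11687). On the dimmer probe the level was 5.26 and 5.06 on the naïve arrays, 6.14 and 5.98 on the sham arrays, 4.74 and 4.53 on the surviving arrays and 3.38 and 3.73 on the dying arrays. Every group was apart from every other: sham was highest, naïve next, then surviving, and both dying arrays lay lowest. Dying neurons fell by 2.50 against sham neurons (SE 0.42, adjusted p = 0.00403 by limma), a 5.67-fold fall, with both dying arrays under both sham arrays. Surviving neurons were at -1.43 against sham (SE 0.42), which missed the threshold with an adjusted p of 0.0503. The difference between surviving and dying neurons was 1.07 (SE 0.43), with an unadjusted p of 0.0358 and an adjusted p of 0.202, so the step from surviving to dying was not called, and neither was that between sham and naïve neurons, 0.90 (adjusted p = 0.889). Without dying replicate 1 the difference between dying and sham neurons was -2.33 (adjusted p = 0.0148), and without dying replicate 2 it was -2.68 (adjusted p = 0.004).

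The brighter Parp1 probe gave 7.45 and 7.54 on the naïve arrays, 8.43 and 8.21 on the sham arrays, 7.78 and 7.66 on the surviving arrays and 7.82 and 7.23 on the dying arrays. Sham was again above the other groups on both arrays. Both surviving arrays lay above both naïve arrays, and the dying arrays spanned them. The difference between dying and sham neurons was -0.80 (SE 0.44, adjusted p = 0.160), that between surviving and sham -0.61 (adjusted p = 0.338) and that between surviving and dying 0.20 (adjusted p = 0.831). The probes of Parp1 therefore differed in size: over the 8 arrays they correlated at r = 0.644, and the spots of the brighter probe had an SD between 0.0562 and 0.185 on an array. The sign of the brighter probe against sham turned with the scaling, from -1.21 to 0.32 in dying and from -0.61 to 0.50 in surviving neurons over 7 scalings and background corrections. The dimmer probe was below sham in all 7, by -2.50 to -1.40 in dying neurons, and was called in 6; the normexp correction gave no call for any probe.

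Ogg1, the glycosylase that removes oxidized guanine, was at 4.96 and 5.59 on the naïve arrays, 5.79 and 5.37 on the sham arrays, 5.81 and 5.90 on the surviving arrays and 5.55 and 5.20 on the dying arrays. Surviving neurons were above all other arrays by a small margin, and the remaining groups overlapped. The difference between surviving and dying neurons was 0.48 (SE 0.46, adjusted p = 0.577). Against sham, surviving neurons differed by 0.28 (adjusted p = 0.681), and the value was positive under all 7 scalings, with a call in 3 of them: 1.24 after quantile normalization (adjusted p = 0.05), 1.25 with the median of probes above background (0.0335) and 1.16 in the series table (0.0394). Under these 3 the median over all probes in surviving minus sham was 0.18, 0.55 and 0.45, against -0.42 with the array median. Relative to that median Ogg1 was between 0.70 and 1.23 over the 7 scalings. In dying neurons the difference from sham was -0.20 (adjusted p = 0.73), positive under 5 of the 7 scalings. It was called after quantile normalization (1.04, adjusted p = 0.0444), where the median over all probes was 0.21.

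Apex1, the endonuclease that cuts at sites without a base, was at 8.92 and 9.75 on the naïve arrays, 9.92 and 9.47 on the sham arrays, 9.83 and 9.32 on the surviving arrays and 9.04 and 8.67 on the dying arrays. Both dying arrays were below all sham and surviving arrays, and naïve neurons spanned most of the range. The difference between surviving and dying neurons was 0.72 (SE 0.50, adjusted p = 0.434), and that between dying and sham was -0.84 (adjusted p = 0.191), so neither was called.

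Xrcc1, the scaffold of single-strand break repair, went the other way between the injured groups. Its level was 6.72 and 7.10 on the naïve arrays, 7.80 and 7.39 on the sham arrays, 6.79 and 6.67 on the surviving arrays and 7.12 and 7.47 on the dying arrays. It was the member whose surviving arrays both lay below both dying arrays, with a difference of -0.56 (SE 0.44, adjusted p = 0.492) that turned to 0.87 under the normexp correction. Ung, which removes uracil from DNA, was near background, between -2.96 and -0.65, and was well above it in naïve replicate 2, both surviving arrays and dying replicate 2. No fold is given for Ung, since sham neurons were not well above background and the bound was under 1.

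Ercc1, part of a nuclease of nucleotide excision repair, was the steadiest of the members: its 8 values lay between 6.69 and 7.53 and all 4 groups overlapped. The difference between surviving and dying neurons was 0.21 (SE 0.49, adjusted p = 0.841).

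Gadd45a, the stress-induced partner of repair and cell cycle proteins, was at 3.36 and 2.77 on the naïve arrays, 5.12 and 4.31 on the sham arrays, 5.14 and 4.72 on the surviving arrays and 4.07 and 5.47 on the dying arrays. Naïve neurons were below all other arrays, and sham, surviving and dying neurons overlapped. The difference between sham and naïve neurons was 1.65 (SE 0.59, unadjusted p = 0.0227), with an adjusted p of 0.889, and 2.27% of the tested probes had a higher value in that comparison. It was positive, between 1.17 and 1.79, under all 7 scalings and called in none. The dying arrays were far apart, and surviving minus dying was 0.16 with both, -0.54 without dying replicate 1 and 0.86 without dying replicate 2, none of them called.

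Mdm2, the ligase that limits p53, was at 5.01 and 5.66 on the naïve arrays, 6.06 and 5.73 on the sham arrays, 4.36 and 4.09 on the surviving arrays and 2.92 and 3.86 on the dying arrays on its brighter probe (A_44_P634946). Both injured groups lay below all uninjured arrays, and both dying arrays below both surviving arrays. Dying neurons fell by 2.50 against sham (SE 0.51, adjusted p = 0.00728), which is 5.66-fold. Surviving neurons were at -1.67 against sham (SE 0.51, adjusted p = 0.0553) and the difference between surviving and dying was 0.84 (SE 0.51, adjusted p = 0.377), neither of which passed, and sham and naïve neurons differed by 0.56 (adjusted p = 0.889). Without dying replicate 1 the value against sham was -2.03 (adjusted p = 0.03), and without sham replicate 1 it was -2.34 and no longer called (adjusted p = 0.068). It stayed below 0 under all 7 scalings, from -2.50 to -1.43, with a call in 5. The dimmer probe was well above background in naïve replicate 1, both surviving arrays and dying replicate 2 only, and no fold is given for it. Its levels were -2.32 and -2.09 on the sham arrays, -0.25 and -0.32 on the surviving arrays and -2.01 and -0.25 on the dying arrays. Both sham arrays and dying replicate 1 were at background, and its bounds against sham were under 1. No direction against sham is therefore read from it, and whether the 2 Mdm2 probes moved together was not measured. What each probe reads was not checked here.

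**Figure D2:**
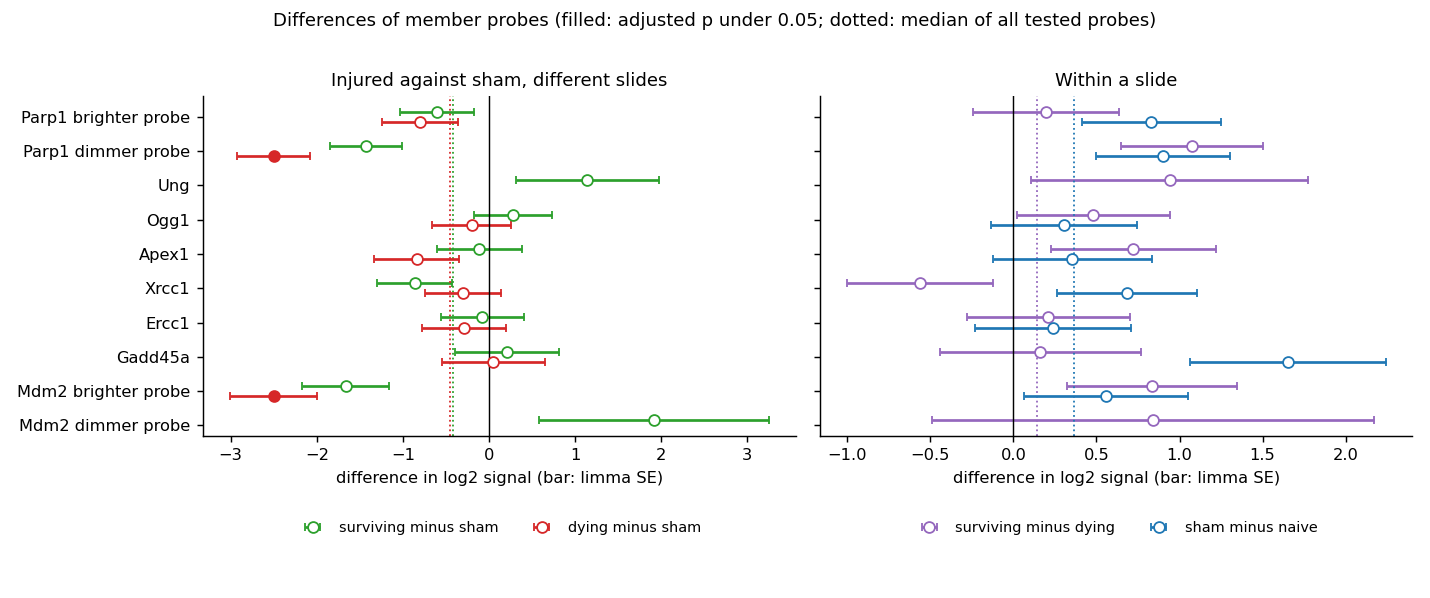
Differences in log2 signal (horizontal axis, bars are limma standard errors) of the tested member probes between injured and sham neurons (left) and within a slide (right); filled symbols passed the adjusted p of 0.05 and dotted lines are medians over all tested probes. The 2 filled symbols are the dimmer Parp1 and the brighter Mdm2 probe in dying minus sham, both at -2.50, against a median of -0.46.

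Between surviving and dying neurons, the comparison the study was made for, 0 of the 10 member probes passed, and over all probes 0 of 27206 did (0%). Without dying replicate 2 there were 5993 calls over all probes (21.3% of 28162) and 0 among the members. At an unadjusted p under 0.05 there was 1 member, the dimmer Parp1 probe, against 5860 probes or 21.5%. The members' differences ran from -0.56 to 1.07 with a median of 0.60, against 0.14 over all probes, and 9 of 10 were positive. Those of the dimmer Parp1 probe, Ogg1, Apex1 and the brighter Mdm2 probe had no overlap between the groups and were positive under all 7 scalings and without any 1 array, with ranges without 1 array of 0.90 to 1.25, 0.30 to 0.66, 0.47 to 0.98 and 0.36 to 1.31, and Xrcc1 had no overlap in the other direction. Over all tested probes, 30.2% had both surviving arrays above both dying arrays and 21.9% had both below. The methods describe a filter by ratios of injured to sham neurons. With its limits carried over to surviving against dying neurons, a ratio over 2 with replicates within a factor of 1.5, 1050 of 21253 probes passed (4.94%), and the dimmer Parp1 probe, at a ratio of 2.10, was the only member. With replicates within 50% of each other 2440 probes passed, and the same probe was the only member. It did not pass after quantile normalization, with the normexp correction or in the series table, where its replicates were too far apart. After quantile normalization its ratio was also under 2, at 1.93. Nor did it pass without surviving replicate 1 (a ratio of 1.94) or dying replicate 1 (1.87). The brighter Mdm2 probe passed without dying replicate 2 (2.49).

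Against sham neurons the members were spread around the shift of the whole array. In dying neurons 8 were tested and 2 called, both lower, where 44.2% of all 25448 probes were called, 29% lower and 15.2% higher. A share of 16.3% of the tested probes lay lower than each of the 2. The other 6 ran from -0.84 to 0.05. In surviving neurons 0 of 10 were called and 2 had an unadjusted p under 0.05, the dimmer Parp1 and the brighter Mdm2 probe. Over all 26835 probes 18.9% were called, 12.1% lower and 6.83% higher, and 36.9% had an unadjusted p under 0.05. The 5069 calls over all probes in surviving neurons became 251 to 504 without 1 array, and the 11236 in dying neurons 3021 to 13423. The median over the members was -0.55 in dying and -0.10 in surviving neurons, beside -0.46 and -0.42 over all probes. These comparisons share their sham arrays. The scaling moves the median over all probes in dying minus sham from -0.46 to as much as 0.55, and relative to that median the dimmer Parp1 probe was between -2.05 and -1.61 and the brighter Mdm2 probe between -2.05 and -1.65. The signs of Apex1, Xrcc1, Ercc1, Ogg1 and Gadd45a in dying minus sham turned with the scaling.

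**Figure D3:**
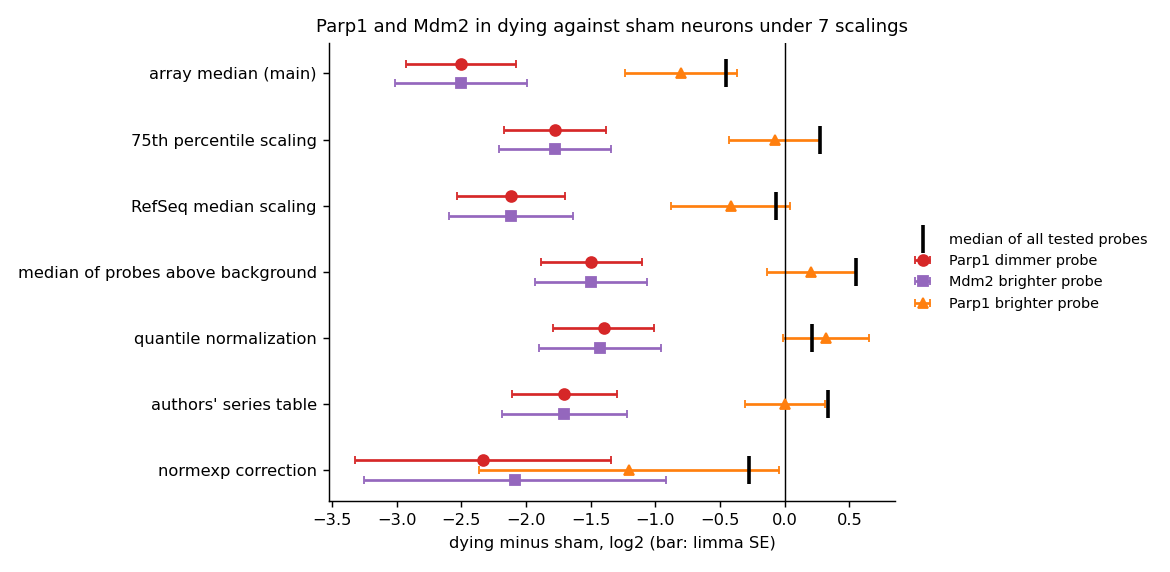
Dying minus sham differences in log2 signal (horizontal axis, bars are limma standard errors) of the Parp1 probes and the brighter Mdm2 probe under 7 scalings or background corrections, with the median of all tested probes as a black mark. The dimmer Parp1 and the brighter Mdm2 probe lie left of the median throughout, and the brighter Parp1 probe runs from -1.21 to 0.32.

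Between sham and naïve neurons 0 of 8 tested members were called, as were 0 of 20396 probes (0%). At an unadjusted p under 0.05 there was 1 member, Gadd45a, against 922 probes or 4.52%. All 8 differences were positive, from 0.24 to 1.65, with a median of 0.62 against 0.36 over all probes. On 6 of the 10 probes the highest group mean was that of sham neurons, and on 4 the lowest was that of dying neurons, against 41.7% and 39% of the 27206 probes tested between surviving and dying neurons.

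The wider pathways were described by 6 lists that hold 106 genes, the members among them, of which 85 had a probe on the array, with 110 probes in all. Between surviving and dying neurons 0 of 89 tested probes were called, and 15 had an unadjusted p under 0.05, beside 0% and 21.5% of all probes. In dying against sham neurons 43 of 81 were called (53.1%), 38 of them lower and 5 higher, beside 44.2% of all probes, and in surviving against sham 16 of 88 (18.2%), 13 lower and 3 higher, beside 18.9%. Between sham and naïve neurons 0 of 76 were called and 2 had an unadjusted p under 0.05, beside 0% and 4.52% of all probes. The median difference of the brightest probes was -1.31 in dying and -0.80 in surviving neurons against sham, and 0.52 between surviving and dying. Leaving out 1 array moved these counts: in dying neurons 11 probes were called without sham replicate 1, 20 without sham replicate 2, 30 without dying replicate 1 and 41 without dying replicate 2, and in surviving neurons 1 without surviving replicate 1 and 0 without any of the others. Between surviving and dying neurons 18 of 89 were called without dying replicate 2, 17 of them higher in surviving neurons, beside the 21.3% of all probes. The directions against sham turned on the scaling: with the median of probes above background 19 probes were lower and 14 higher in dying neurons, and 7 lower and 10 higher in surviving neurons, and from the series table the numbers were 19 and 10, and 4 and 7, in the same order. With the normexp correction 0 were called in either. Genes are named below for the largest difference between surviving and dying neurons in their list, among brightest probes well above background on all 4 injured arrays, and other names were chosen after their values were seen. Of their 20 called values in dying minus sham, 14 passed without dying replicate 1, 15 without dying replicate 2, 5 without sham replicate 1 and 9 without sham replicate 2. Of their 11 called values in surviving minus sham, 1 passed without surviving replicate 1, the dimmer probe of Ccng1, and 0 without any other array.

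Nucleotide excision repair was the list with the most genes called lower in dying neurons by count, 13, though double-strand break repair had the lower median (-2.70). Of the 25 tested probes of nucleotide excision repair 15 fell and 0 rose against sham, beside 29% lower and 15.2% higher over all probes. All 18 of its tested genes had a negative difference on the brightest probe, and their median was -2.39 against -0.46 over all probes. Among its genes well above background on all 4 injured arrays, the largest differences between surviving and dying neurons were those of Cetn2, Ccnh and Gtf2h2. Cetn2, a centrin of the complex that finds lesions, was at 4.84 and 4.01 on the sham arrays, 1.85 and 1.14 on the surviving arrays and 0.30 and -1.16 on the dying arrays. The groups did not overlap, and dying neurons were at -4.86 against sham (adjusted p = 0.0018) and surviving at -2.93 (adjusted p = 0.0202), while the difference of 1.93 between them was not called (adjusted p = 0.147). Ccnh and Gtf2h2, parts of the transcription and repair factor TFIIH, were at -3.24 and -2.87 in dying and -2.04 and -1.80 in surviving neurons against sham. All 4 values were called, those in surviving neurons under 2 of 7 scalings, and that of Gtf2h2 in dying neurons was not called without sham replicate 1 (-2.60, adjusted p = 0.0539). Their differences between surviving and dying were 1.20 and 1.07, not called (adjusted p = 0.256 and 0.274), and 0.64 and 0.57 without dying replicate 1. That of Cetn2 was 1.20 without dying replicate 2. In surviving neurons 8 of 25 probes of the list were lower and 0 higher, with a median of -1.18, and 0 were called when any 1 array was left out. Over all probes in surviving minus sham 12.1% were lower and 6.83% higher, with a median of -0.42. Ercc1 was at -0.29 in dying and -0.08 in surviving neurons, near the upper end of its list. In dying neurons the list had 6 of 25 probes lower without sham replicate 1 (median -2.08), 9 of 25 without sham replicate 2, 11 of 26 without dying replicate 1 (median -1.98) and 16 of 25 without dying replicate 2.

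Double-strand break repair, which rejoins or copies across broken ends, had 7 of 9 tested probes lower and 0 higher in dying neurons. All 8 tested genes were negative, with a median of -2.70. Over all probes 29% were lower and 15.2% higher, with a median of -0.46. H2afx, the histone variant that flags breaks, was at -2.45 (adjusted p = 0.0263, called under 2 of 7 scalings), and at -1.38 without dying replicate 1 (adjusted p = 0.11). Nbn, of the complex that binds broken ends, was at -2.20 (adjusted p = 0.00746, called under 4 of 7), and at -2.02 without sham replicate 1 (adjusted p = 0.0739). The differences of H2afx and Nbn between surviving and dying neurons were 1.48 and 0.27, and that of Xrcc6, the smaller Ku subunit, was 0.70, none of them called. That of H2afx was 0.41 without dying replicate 1 and 2.54, called, without dying replicate 2 (adjusted p = 0.0259). In surviving neurons Nbn (-1.93) and Xrcc5 (-3.50), the larger Ku subunit, were called lower. Xrcc5 had 1 surviving array well above background and passed the filter through the sham arrays alone. The calls of Nbn and Xrcc5 were lost when any 1 array was left out. The count in dying neurons was 0 of 9 without sham replicate 1 (median -2.45), 4 of 10 without sham replicate 2, 4 of 9 without dying replicate 1 (median -1.98) and 8 of 9 without dying replicate 2. Over the 7 scalings the median of the list in dying neurons ran from -2.70 to -1.40 and that of nucleotide excision repair from -2.39 to -1.36, and the normexp correction called 0 probes of either.

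Base excision repair, the list of Ogg1, Ung, Apex1 and Xrcc1, had 7 of 21 tested probes lower and 2 higher in dying neurons, beside 29% lower and 15.2% higher over all probes. In dying neurons 9 of 17 genes were negative, and the median was -0.20, with a range of -0.46 to 0.86 over the scalings. Smug1, a uracil glycosylase, and Apex2, a relative of Apex1, were the 2 called higher, both well above background on all 4 injured arrays and on 0 of the sham arrays. Against the bound for sham, Smug1 rose by a factor of 1.56 or more in surviving and of 1.27 or more in dying neurons. For Apex2 this factor was 1.12 or more in surviving neurons, with no fold given in dying neurons. The probes of Smug1 and Apex2 passed the filter through the injured arrays alone. Their calls therefore rest on sham values at background, and they are kept in the counts without a p-value. Smug1 was not called when any 1 array was left out, and Apex2 was called without dying replicate 2 only. The count of lower probes in dying neurons was 2 without either sham array, 4 without dying replicate 1 and 5 without dying replicate 2. In surviving neurons Smug1 and Apex2 were called higher and 2 others lower of 23 tested, beside 6.83% higher and 12.1% lower over all probes. The 2 lower were Lig3 (-3.08), the ligase that works with Xrcc1, and Pcna (-1.74), the sliding clamp, the latter with the array median only. Lig3 was at 0.77 in naïve replicate 2, with no value in naïve replicate 1. It was at 3.44 and 4.26 on the sham arrays and at 0.58 and 0.96 on the surviving arrays. Lig1, the replicative ligase, had the largest difference between surviving and dying neurons among genes well above background on all 4 injured arrays, -1.67 (SE 0.44, adjusted p = 0.125), with 3.75 and 3.85 in surviving against 5.32 and 5.61 in dying neurons. Polb, the polymerase of the pathway, differed by 0.61 between them (adjusted p = 0.493), by 0.26 without dying replicate 2 and by 0.95 without dying replicate 1, and was at -1.67 in dying against sham (adjusted p = 0.0235), a call that only the array median gave of the 7 scalings. The dimmer probe of Polb, well above background on both sham arrays and neither dying array, was at least 3.14-fold lower in dying neurons. It was called under 6 of the 7 but passed the filter through the sham arrays alone.

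Of the 4 genes that make or remove poly(ADP-ribose), Parp2, the closest relative of Parp1, was 1.30 higher in surviving than in dying neurons on its brighter probe (adjusted p = 0.267), with 0.65 without dying replicate 2 and 1.96 without dying replicate 1, and 1.95 lower on its dimmer probe (adjusted p = 0.235). Against sham the brighter probe of Parp2 was at -1.97 in dying neurons (adjusted p = 0.0323), called with the array median and with none of the other scalings. The dimmer probe of Parp2 was at 2.37, with 1 sham array well above background. It passed the filter through the dying arrays alone, so no direction against sham is read from it. The value of the dimmer probe was 3.76 without dying replicate 1 and 0.98, not called, without dying replicate 2, and the brighter probe was called without dying replicate 1 only. In dying neurons the list had 1 of 4 tested probes higher, that of Parp2, and 2 lower, of Parp1 and Parp2. Over all probes 15.2% were higher and 29% lower. In surviving neurons 0 of 5 were called and 2 had an unadjusted p under 0.05, beside 18.9% and 36.9% of all probes. In mismatch repair 3 of 5 tested probes were called lower and 1 higher in dying neurons, beside 29% lower and 15.2% higher over all probes. Msh3 (-3.12) and Pms2 (-1.59, with the array median only) were among those called lower. The exonuclease Exo1 was called higher in dying (1.93) and in surviving neurons (1.92). The fall of Msh3 was called under 3 of 7 scalings, and its call was lost without sham replicate 1 (-2.89) or sham replicate 2 (-3.35). Without dying replicate 1 Msh3 was at -1.87, still called, and Pms2 at -0.86, not called. Msh3 and Pms2 differed by 1.78 and 0.66 between surviving and dying neurons, neither called (adjusted p = 0.241 for Msh3). The difference of Msh3 was 0.53 without dying replicate 1 and 3.02, called, without dying replicate 2 (adjusted p = 0.0166).

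The checkpoint and p53 list, which holds Gadd45a and Mdm2, had a median of -0.11 in dying and -0.0027 in surviving neurons against sham, both of which changed sign with the scaling. In dying neurons 4 of 17 probes were lower, those of Mdm2, Ei24 (-3.87), Rad1 (-2.74) and the dimmer probe of the cyclin Ccng1 (-3.59). The probe called higher was 1, that of Gadd45g. Over all probes 29% were lower and 15.2% higher. For Ei24 and Rad1, 1 dying array had a signal well above background, so both passed the filter through the sham arrays alone. Without dying replicate 1 they were at -2.68 and -1.68, not called. Gadd45g, a relative of Gadd45a, was at 6.95 and 6.68 on the sham arrays, 8.40 and 7.84 on the surviving arrays and 9.61 and 9.24 on the dying arrays. It rose by 2.61 in dying neurons (SE 0.45, adjusted p = 0.00439), was at 1.30 in surviving neurons (adjusted p = 0.0779, called under 4 of the other 6 scalings), and differed by -1.31 between surviving and dying (adjusted p = 0.165). Cdkn1a, the p53 target that stops the cell cycle, was at 3.74 and 3.59 on the sham arrays, 3.60 and 2.95 on the surviving arrays and 5.01 and 4.82 on the dying arrays. Its difference between surviving and dying was -1.64 (adjusted p = 0.127) and that between dying and sham 1.25 (adjusted p = 0.0544), called under 5 of the other 6 scalings. Btg2, another p53 target, differed by -1.67 between surviving and dying neurons (adjusted p = 0.187), by -0.95 without dying replicate 1 and by -2.39, which was called, without dying replicate 2 (adjusted p = 0.0358). In surviving neurons 1 of 20 probes was called, the dimmer probe of Ccng1 (-3.29), beside 18.9% of all probes.

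**Figure D4:**
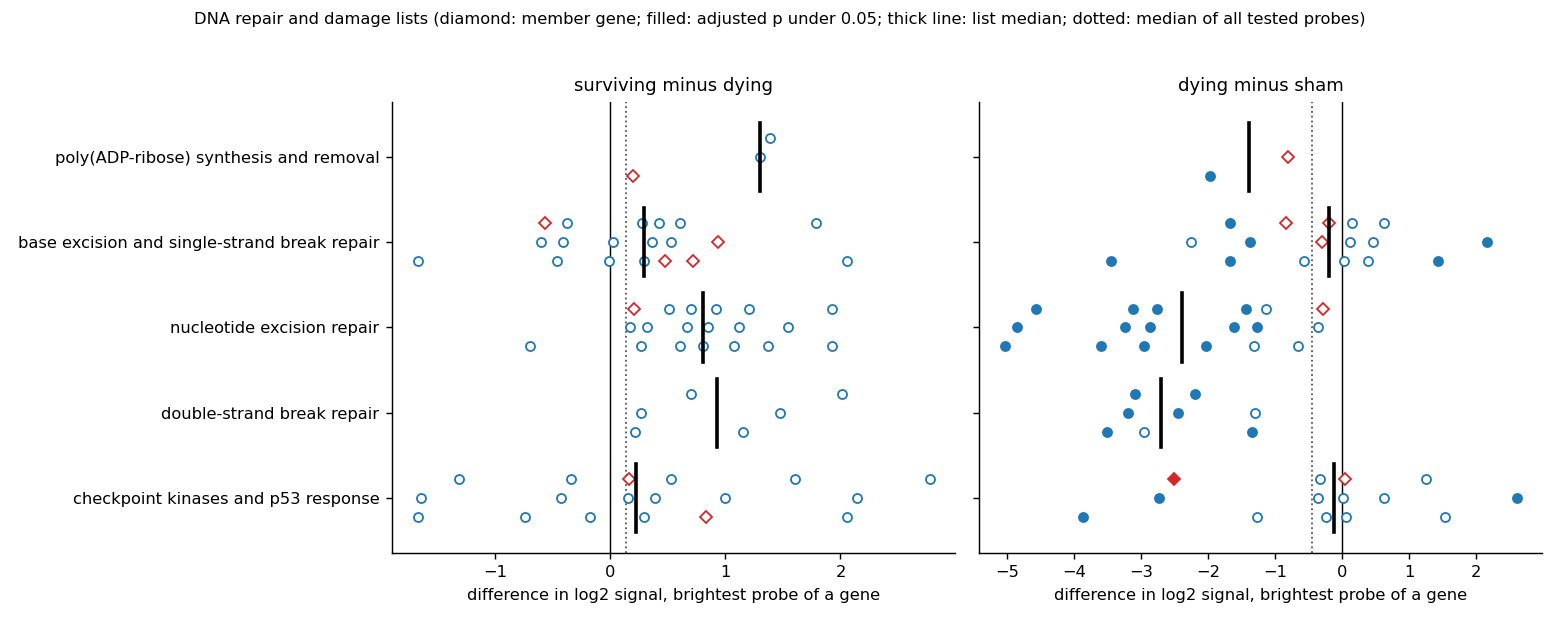
Differences in log2 signal (horizontal axis) of the brightest probe of each tested gene in 5 of the 6 lists, for surviving minus dying (left) and dying minus sham (right); diamonds are members, filled symbols passed an adjusted p of 0.05, thick lines are list medians and dotted lines medians of all tested probes. The nucleotide excision and double-strand break lists lie left of 0 in dying minus sham, with medians of -2.39 and -2.70, and no symbol is filled in surviving minus dying.

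Markers of cell types were read on the same arrays as summed levels over the array median, in the order naïve, sham, surviving and dying, replicate 1 before replicate 2. Of 8 pyramidal neuron genes 7 had their brightest probe well above background on all arrays, the brightest probe was that of Nrgn, and the sums were 6303, 8853, 11779, 10084, 6517, 6247, 3229 and 3359. The 10 genes of microglia and macrophages, with C1qa brightest and with 7 above background on all arrays, summed to 128, 273, 268, 250, 328, 357, 2028 and 1122. Pyramidal markers were thus lowest and microglial markers highest in the dying pools, on the arrays where the dimmer Parp1 and the brighter Mdm2 probe were lowest. Astrocyte genes, 5 of 6 above background on all arrays, with Slc1a3 brightest, summed to 693, 775, 1199, 772, 424, 437, 986 and 446. Endothelial genes, 3 of 5, with Kdr brightest, summed to 45.6, 74.6, 84.3, 64.5, 55.6, 50.2, 250 and 123, with Tek above background on no array. In both lists dying replicate 1 stood above the other injured arrays. Interneuron genes, 4 of 6 with Pvalb brightest, summed to 330, 453, 416, 394, 164, 147, 676 and 159. Oligodendrocyte genes, 4 of 5 with Mog brightest, summed to 174, 257, 226, 290, 58.5, 63.6, 177 and 73.3. Neutrophil genes, 0 of 4 with S100a9 brightest and Mmp8 above background on no array, lay between 0.638 and 18.1, highest in the dying pools. The part of these cells in the results was not tested. In pools of captured cells, fewer cells of a type and less RNA per cell cannot be told apart.

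The genes whose levels ran most like those of a member over the 8 arrays were sought among 9158 gene-named probes well above background on all arrays, as a description. The brighter Mdm2 probe was most like Hnrpk (r = 0.998), Ccnh (0.998) and Yipf4 (0.997). Among the members it was most like the dimmer Parp1 probe (r = 0.945), while Gadd45a and Mdm2 were at r = -0.24. The brighter Parp1 probe was most like RGD1561684 (0.987), Rbm10 (0.953) and Akt1s1 (0.953). For the base excision genes the nearest were Gdf1 (0.951), Zfml (0.946) and Hcr (0.942) to Ogg1, Ufc1 (0.979), RGD1565675 (0.976) and Hcfc1r1 (0.972) to Apex1, and Mrvldc1 (0.957), LOC500015 (0.954) and Fcna (0.944) to Xrcc1. Ercc1 was nearest to Fkbp4 (0.977), LOC690367 (0.971) and Thumpd2 (0.959), and Gadd45a to Rhbdf1 (0.930), Sc65 (0.918) and Daxx (0.914). All of these points share the same 8 arrays and the same slides.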

How the data were processed

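The study measured pools of laser-captured CA3 neurons on 8 single-colour Agilent arrays. Per the file headers, the authors made the processed intensity of each spot with Agilent Feature Extraction, with background subtracted and spatial trends taken out, and arrays were not normalized to each other. The extraction protocol named in the headers differed between the injured arrays and the sham and naïve arrays. The deposited files also hold mean and local background intensities, and other marks say whether a spot was well above background, non-uniform or saturated (0 spots were). The signal of the deposited series table is the processed signal divided by 1 constant for each array, with a floor, as found by setting the deposited values against each other.

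Spots marked non-uniform were dropped, the remaining spots of a probe were averaged, and each array was divided by its median, as in the study's methods, with a floor of 0.01 before log2. The 4 group means were fitted to all 8 arrays with limma 3.58.1 in R 4.3.3, with no covariate. A probe was tested when either group of a comparison had it well above background on both arrays, and Benjamini-Hochberg adjustment covered the two-sided p-values of all tested probes within a comparison, with a threshold of 0.05. Precision is limited by 2 arrays a group. For a group with a probe at background on both arrays, a bound was taken: on each array the smallest signal among probes well above background, or the probe's own signal if that was larger. A filter with the limits of that in the methods, which sets injured against sham neurons, was applied to surviving against dying neurons and took probes well above background on all 4 injured arrays whose replicates differed by a factor of at most 1.5, with a ratio of group means over 2 in either direction.

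All 8 members were named with every probe. The brightest probe of a gene had the highest mean over the arrays, and of each of 6 pathway lists the 3 genes with the largest absolute difference between surviving and dying neurons were named, among brightest probes well above background on all 4 injured arrays. Likeness was Pearson's r over the 8 arrays, with the 3 highest named. The members and lists, pathways and cell type markers included, were chosen with earlier results of these data known. Python 3.11.15, pandas 2.3.3 and matplotlib 3.10.9 were used for counts and plots. Alternatives were other scalings, the normexp correction, other filters, a replicate block and leaving out each array in turn. Some genes of the wider lists are counted in the totals and not reported here by value.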

Additional observations from a re-analysis of the deposited data

How the results depend on the processing

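With 2 arrays a group, leaving out an array leaves a lone one, taken to vary as the other groups do. The 2 Parp1 probes differ in size, dim probes are limited by background, and levels rest on 1 constant per array. The fall of the dimmer Parp1 probe in dying neurons was called under every scaling except the normexp correction (-2.33) and without any array, and that of the brighter Mdm2 probe was not called after quantile normalization (-1.43), the normexp correction (-2.08) or without sham replicate 1 (-2.34). In surviving neurons the dimmer Parp1 probe passed with a floor of 0.1, with probes above background in both groups, with a mean trend in the spread and with only the 2 groups fitted, and the brighter Mdm2 probe with the last 3 of these. The cause was not tested.

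Counts of called probes moved as follows. Surviving minus dying gave 0, 2 in the series table and 0 to 5993 without 1 array, the highest without dying replicate 2. Surviving minus sham gave 5069, 0 with the normexp correction, 3109 of probes above background in both groups, 12131 with only the 2 groups fitted and 251 to 504 without 1 array. Dying minus sham gave 11236, 0 with the normexp correction, 7156 above background in both groups and 3021 to 13423 without 1 array. Where limma called 0 probes under the normexp correction, 2500 and 2323 had an unadjusted p under 0.05. Sham minus naïve gave 0, 1 after quantile normalization and 125 with only the 2 groups. The 2-fold filter gave 1050, 2440 with replicates within 50% of each other, 6458 without a limit on replicates, 303 with the normexp correction and 1526 to 6650 without 1 array. Of the calls in dying minus sham, 34.3% were higher, and 59.8% with the 75th percentile, 56.3% after quantile normalization, 46.5% with the RefSeq median, 68.7% with the median of probes above background and 63% in the series table. In surviving minus sham the share was 36.2%, and 73.5%, 59.3%, 37.2%, 80.1% and 75.3% in the same order. It was 6.56% and 15.7% in surviving and dying minus sham for probes above background in both groups.

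Signs turned in these cases. In surviving minus dying, quantile normalization gave -0.12 for Ercc1, -0.11 for the brighter Parp1 probe and -0.025 for Gadd45a, and the RefSeq median gave -0.13, -0.14 and -0.17 for them and -0.068 for Nbn. The normexp correction gave 0.87 for Xrcc1, -0.091 for the dimmer Mdm2 probe, -0.14 for Ung and 0.24 for Gadd45g. Without 1 array the range was -0.045 to 0.47 for Ercc1, -0.10 to 0.49 for the brighter Parp1 probe, -0.040 to 1.72 for the dimmer Mdm2 probe, -0.54 to 0.86 for Gadd45a, -0.017 to 1.42 for Xrcc6, -0.043 to 0.58 for Nbn and -0.064 to 1.39 for Pms2. The brighter Parp1 probe in surviving minus sham was at 0.18 with the 75th percentile, 0.22 after quantile normalization, 0.37 with the median of probes above background, 0.50 with the normexp correction and 0.27 in the series table. In dying minus sham it was at 0.32 after quantile normalization, 0.21 with the median of probes above background and 0.0031 in the series table. The cause was not tested.

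The labels number replicates 1 and 2 in every group and do not say that a number pairs pools. Deviations of arrays with the same number correlated at r = -0.110 between surviving and dying and at r = -0.114 between naïve and sham neurons, so the numbers were not taken to pair them. With the replicate number as a block 0 probes were called in surviving minus dying (5457 at an unadjusted p under 0.05), 3488 in surviving minus sham, 10333 in dying minus sham and 0 in sham minus naïve (783). With crossed numbers as a block, chosen after seeing the data, 0 were called in surviving minus dying and 0 in sham minus naïve, with 6417 and 1044 at an unadjusted p under 0.05.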

Other observations

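Probes named after relatives of the members were not counted with them, and these were chosen after their values were seen. RGD1565217, described on the array as similar to uracil-DNA glycosylase 2, had 2 probes, both well above background on all 4 injured arrays and on 0 of the sham and naïve arrays. On the first probe surviving neurons were at least 1.79-fold and dying neurons at least 2.99-fold higher than sham. On the second they were at least 5.56-fold and 3.32-fold higher. Both probes passed the filter through the injured arrays alone, so no test is given for them. Its levels on the second were 2.60 and 1.90 in surviving, 1.77 and 1.25 in dying, -1.08 and -1.04 in sham and -2.08 and -1.12 in naïve neurons. The slides of injured and sham arrays differ, and the 2 cannot be told apart. RGD1565983, described as similar to Apex2, was at -2.76 in dying against sham neurons, with 1 dying array well above background. It passed the filter through the sham arrays alone, so no test is given for it. The probe of Apex2 itself was called higher, through the injured arrays alone.

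The dimmer Mdm2 probe was at 2.07 in naïve replicate 1 and at -2.66 in naïve replicate 2, a gap far wider than in any other group, on an array with 734 non-uniform spots against 6 on the other.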
